A study of Mus musculus with 4 samples.

Results

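The 44 genes described here encode proteins of the endoplasmic reticulum (ER) folding, stress and secretory pathway, measured as messenger RNA in sorted mouse dental follicle cells with 1 or no working copy of Ptch1. They were chosen by name, from the unfolded protein response, the ER chaperones, the translocon and the vesicle coat that carries cargo out of the ER, and make up 44 of the 23107 gene symbols in the tables. All 44 were found in both deposited tables of values, and all 44 passed the filter on low values. By role they comprise 6 genes of the PERK, ATF4 and CHOP arm of the stress response, 3 of the IRE1, XBP1 and ATF6 arm, 2 CREB3L transcription factors, 13 chaperones and folding enzymes, 7 genes of ER-associated degradation, 5 translocon genes and 8 genes of ER exit and retrieval.

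Proteins meant for secretion enter the ER through the translocon, fold there with the help of chaperones and disulphide isomerases, and leave in vesicles coated by COPII. When unfolded protein builds up, the membrane sensors PERK, IRE1 and ATF6 switch on the unfolded protein response, which slows protein synthesis and raises the production of chaperones and of the machinery that sends misfolded proteins to the proteasome. Cells of the dental follicle, the connective tissue around a developing tooth, secrete much collagen and later form the ligament, cementum and bone that hold the tooth. Parts of the response act after transcription: ATF4 is controlled mainly by translation, XBP1 by splicing of its mRNA and ATF6 by cleavage, and gene-level mRNA values do not show these steps.

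The samples were tdTomato+ cells, labelled PTHrP+, sorted by flow cytometry from the dental follicles of mandibular molars of mice collected at postnatal day 8 after tamoxifen at postnatal day 3. The control libraries (cHet) came from cells of genotype Ptch1(+/-) and the mutant libraries (cKO) from cells of genotype Ptch1(-/-), with 2 libraries in each group. The groups therefore shared the tamoxifen, the reporter and the loss of at least 1 Ptch1 copy, and no wild-type group was analysed here. The driver of the recombination and the number of animals behind a library are not stated in the labels. The p-values therefore measure only how far these libraries spread, and that spread may be technical. Ptch1 is the receptor for Hedgehog ligands and restrains the pathway when none is bound, and the comparison asks how its loss alters PTHrP+ follicle cells. The libraries are called cHet 0, cHet 1, cKO 0 and cKO 1 after the table columns. The sample titles are numbered from 1, so that a column is known by its group only.

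Several of the genes carry in their promoters the DNA element through which the stress response is known to act, and these elements are shown because the sensors described below are known to work through them. The ER stress response element, bound by ATF6 together with NF-Y, consists of CCAAT and CCACG with 9 bases of any kind between. It was searched on both strands of the 250 bases upstream of each RefSeq gene start (GRCm38.p6), for which 35 of the 44 genes had a window. It was present in 8 of these 35 genes, against 35 of all 27025 genes with a window, or 0.13%. The sites are printed 5′ to 3′ on the strand that carries the motif, with the conserved ends in capitals. Hsp90b1, which encodes the chaperone GRP94, has 2 such sites.
Hspa5, chr2:34772020-34772048, plus strand: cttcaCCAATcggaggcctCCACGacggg
Hsp90b1, chr10:86705633-86705661, minus strand: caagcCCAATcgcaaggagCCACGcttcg
Hsp90b1, chr10:86705528-86705556, plus strand: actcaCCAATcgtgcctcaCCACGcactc
Calr, chr8:84847070-84847098, plus strand: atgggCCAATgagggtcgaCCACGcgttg
Canx, chr11:50325795-50325823, minus strand: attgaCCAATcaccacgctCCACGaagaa
Pdia6, chr12:17266486-17266514, plus strand: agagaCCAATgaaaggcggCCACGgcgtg
Dnajc3, chr14:118937822-118937850, plus strand: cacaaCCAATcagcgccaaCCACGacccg
Syvn1, chr19:6046527-6046555, plus strand: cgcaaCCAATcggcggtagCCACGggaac
Derl3, chr10:75893237-75893265, minus strand: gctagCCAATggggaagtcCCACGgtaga

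The related element ERSE-II, ATTGG and CCACG with 1 base between, was found among the 35 genes only in Herpud1, which encodes an ER membrane protein of the degradation machinery, and in 10 of all genes (0.037%). The Herpud1 promoter is shown whole because it also holds TGATGNAA, the composite site read by ATF4 and CHOP, on the opposite strand. Capitals mark the ATF4-type site and ERSE-II in that order, and the window is chr8:94386179-94386428, plus strand.
Herpud1 upstream window: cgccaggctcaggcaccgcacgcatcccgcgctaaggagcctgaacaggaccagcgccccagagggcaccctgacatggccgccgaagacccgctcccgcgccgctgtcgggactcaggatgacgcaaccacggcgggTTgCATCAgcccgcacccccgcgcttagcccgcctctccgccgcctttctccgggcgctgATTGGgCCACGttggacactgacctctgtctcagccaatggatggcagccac
The ATF4-type site was also present upstream of Asns and Chac1, both textbook ATF4 targets, and in 1056 of all genes (3.91%). The Asns site lies at chr6:7693220-7693237 on the minus strand and the Chac1 site at chr2:119351044-119351061 on the minus strand.
Asns ATF4-type site: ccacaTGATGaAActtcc
Chac1 ATF4-type site: aggagTGATGcAAcggca
A match describes these letters only and shows neither binding nor a cause of any value below. The core of the XBP1 and ATF6 element, TGACGTG, was found upstream of Hspa5, Sec24d, Mia3 and Kdelr3, and in 499 of all genes (1.85%).

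The deposited values were gene counts that the authors had divided by a factor per library (scaled counts), and FPKM, which also divide by gene length and library size. Of the scaled counts above 0, 96.9% to 98.7% lay within 0.05 of a whole multiple of a step that was fixed for each library. Divided by that step, the libraries held from 62303984 (cKO 1) to 85660414 (cHet 0) recovered counts. Between 9850 and 12360 genes per library reached an FPKM of 1, with the fewest in cHet 1. Log2 scaled counts correlated across genes between 0.742 and 0.893 for pairs of libraries, and cHet 0 was closer to both cKO libraries than to cHet 1. Groups were compared with limma on log2(scaled count + 3) over the 14297 genes that reached 10 in 2 or more libraries, with Benjamini-Hochberg adjustment over all of them. A log2 fold change below is on this scale, as cKO minus cHet, and is given with its standard error. Ptch1 itself had scaled counts of 12867 and 5438 in cHet against 22420.0 and 23341 in cKO, which is 1.45 ± 0.39 on the log2 scale. A count over the whole gene does not show the loss of an exon, so it does not check the genotype. Its Hedgehog targets Gli1 and Hhip, at log2 fold changes of 0.84 ± 0.34 and 1.45 ± 0.24, also showed no overlap, with the cKO libraries above. The 10 dental follicle markers were all detected, and their summed scaled counts were 5917790 and 6540910 in cHet against 4412360 and 4239700 in cKO. Col1a1 and Col3a1 made up 95.6% to 96.8% of these sums, and the other 8 summed to 187512 and 290707 in cHet against 147317 and 135275 in cKO. Runx2, at 23232 and 28353 in cHet against 28344 and 25078 in cKO, overlapped, as did Prrx1, Pthlh, Aspn and Col3a1. Of the 2 collagens, Col3a1 had 2057080 and 2879290 in cHet against 2142840 and 2004620 in cKO. Col1a1 did not overlap, at 3673200 and 3370910 in cHet against 2122200 and 2099810 in cKO.

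Transcripts of the 44 genes lay mostly lower in the Ptch1(-/-) libraries, by modest amounts. The PERK arm was an exception, with a median of 0.43 with all libraries and -0.26 without cHet 1. Its 0.43 fell between Ddit3 (0.60 ± 1.31) and the sparsely counted Chac1 (0.25 ± 2.91). The 3 PERK arm genes that averaged 1000 or more had a median of 0.053, against 0.024 over all genes at that level. Of the 44 genes, 36 (81.8%) had a lower and 8 a higher mean log2 value in cKO, against 43.7% lower over all genes tested. Their log2 fold changes ran from -0.89 (Lman1) to 1.24 (Asns), with a median of -0.29 against 0.12 over all genes tested. Together the 44 took 1.21% and 1.24% of the scaled total in cHet 0 and cHet 1, and 1.04% and 0.96% in cKO 0 and cKO 1. In 21 of the 44 genes (47.7%) both cKO libraries lay below both cHet libraries, and in 0 both lay above. Over all genes tested these shares were 14.2% and 18.0%. None of the 44 passed an adjusted p of 0.05 in limma, nor did any of the 14297 genes (0.0%), where 0.913 was the smallest adjusted p. With limma-voom on the recovered counts, 8 genes passed, 0 of them among the 44. Before adjustment, 4 of the 44 (9.09%) were lower with a limma p under 0.05 and 0 higher, against 1.49% lower and 1.54% higher over all genes. Leaving out at least 1 of the libraries moved the log2 fold change by over 1.5 times or changed its sign in 37 of the 44 genes. The 7 others were Xbp1, Creb3l1, Hspa5, Dnajb11, Manf, Ssr3 and Sec23a. An exact permutation test of 2 libraries against 2 cannot give a two-sided p below 0.333. In FPKM, 4 of the 41 genes that reached 1 in 2 libraries had cKO below cHet without overlap (Creb3l1, Herpud1, Sec61a1 and Lman1), against 8.75% of all genes, a difference between the units taken up at the end.

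Most of the 44 genes were well expressed, and the 39 whose scaled counts averaged 1000 or more had a median log2 fold change of -0.30. Of these 39, 21 (53.8%) did not overlap with cKO lower, against 16.5% of all 8963 genes at that level. The library with the lowest value was mostly from cKO. The lowest of the 4 values fell in cKO 1 for 23 of the 44 genes, in cKO 0 for 11, in cHet 1 for 8 and in cHet 0 for 2, whereas over all genes cHet 1 held the lowest value in 44.5%. Without cHet 1, the median of the 44 was -0.28, 38 were lower, and 31 lay below the remaining cHet library in both cKO libraries, against 28.7% of all genes. In bulk samples, fewer cells of a type and less RNA per cell cannot be told apart, and the summed markers of follicle mesenchyme (9 of 10 lower, none at 0, mostly the collagens) and of odontoblasts were, like most of these genes, lower in both cKO libraries. The 7 odontoblast markers, none of them at 0, summed to 176821 and 159709 in cHet and to 32006 and 52320.2 in cKO. All 7 had a lower mean log2 value in cKO, but Nes and Dmp1 overlapped between the groups. Sp6, the largest part of the sum in cHet 0 and cKO 1, had 62019 and 42274 in cHet against 8564 and 19050 in cKO. The part of these cells in the result was not tested. Sums for epithelium ran from 582528 to 1489000 in cHet and from 971859 to 2770960 in cKO. Sums for osteoblasts ran from 234954 to 311938 in cHet and from 235825 to 257910 in cKO. The groups overlapped in both sums, but single markers differed from them. Of the epithelial markers 5 of 10, and of the osteoblast markers 4 of 7, had a lower mean log2 value in cKO. Epcam had 4828 and 2448 in cHet against 621 and 1002 in cKO, without overlap. Bglap had 1941 and 1125 in cHet against 255 and 326 in cKO, also without overlap. Markers of plasma cells, which are rich in ER, were sparse, with Tnfrsf17 and Mzb1 at 0 in all 4 libraries, and their sum was nearly all Sdc1, which other cells also express. Ighm and Igkc, also on that list, matched no deposited gene symbol and gave no value.

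**Figure D1:**
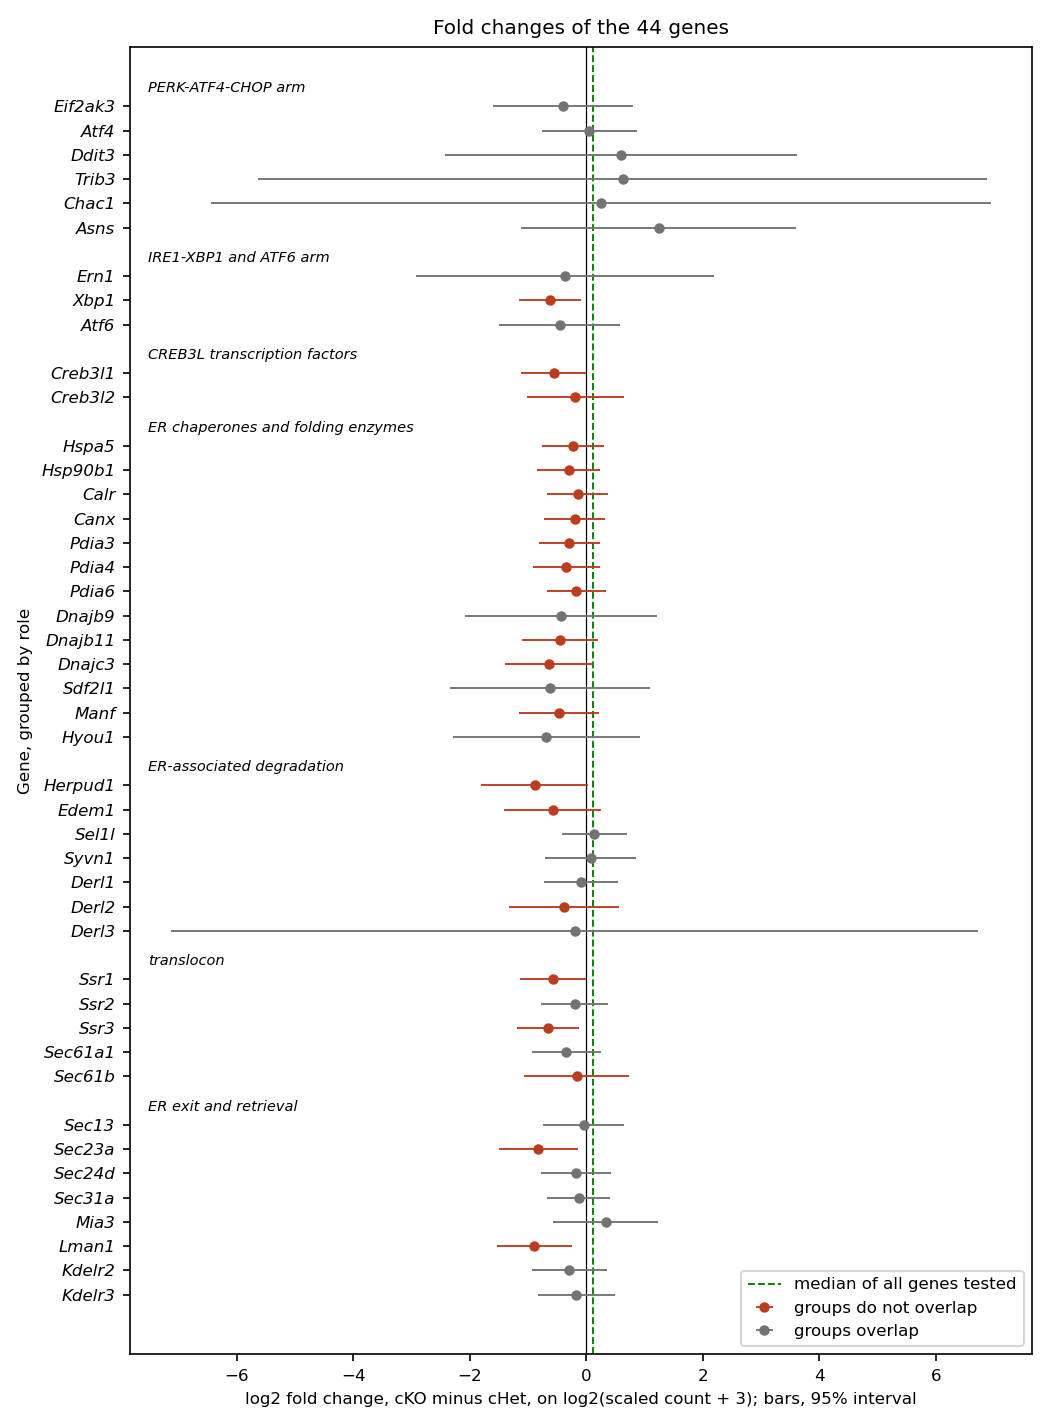
The horizontal axis gives the log2 fold change of each gene, cKO minus cHet, on log2(scaled count + 3), with points for the fitted value, bars for its 95% interval from limma and colours for whether the groups overlap, and the vertical axis lists the genes by role. Most points lie left of 0 and of the dashed all-gene median of 0.12, between -0.89 and 1.24, and the widest bars belong to the sparsely counted Trib3, Chac1 and Derl3.

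The PERK arm did not share a direction. Of its 6 genes, 1 was lower and 5 were higher in cKO, of which Atf4 was lower (-0.052) with median-of-ratios rescaling, and in all 6 the groups overlapped. Eif2ak3, which encodes the sensor kinase PERK, had scaled counts of 3244 and 5154 in cHet against 4771 and 2019 in cKO. The highest value was in cHet 1 and the lowest in cKO 1 (log2 fold change -0.40 ± 0.52, and 0.22 without cKO 1). Atf4, the transcription factor whose translation PERK raises, was at 9843 and 9664 in cHet against 7242 and 14128 in cKO, with the cKO libraries on either side of the controls and a difference of 0.053 ± 0.35. Ddit3, which encodes the stress factor CHOP, gave 705 and 264 in cHet against 485 and 883 in cKO, so that cHet 1 stood lowest and cKO 1 highest.

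The effectors downstream of ATF4 and CHOP each had 1 low library in cHet alone or in each group. Asns, the asparagine synthetase whose ATF4-type site is printed above, had 3419 and 341 in cHet against 2564 and 2559.9 in cKO. Only cHet 1 was low, and the other libraries lay close together. The log2 fold change of Asns was 1.24 ± 1.03. It became -0.42 without cHet 1 and 2.90 without cHet 0. Trib3, a pseudokinase that dampens the response, was sparsely counted, with 34.8 and 1.05 in cHet against 85.1 and 1.13 in cKO, which are 43, 1, 79 and 1 recovered counts. Chac1, a glutathione-degrading enzyme, was likewise at 112 and 0 in cHet against 2.15 and 91.9 in cKO. In both genes 1 library of each group lay near 0, so that the standard errors, 2.72 and 2.91, exceeded the fold changes of 0.63 and 0.25. 

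In the IRE1, XBP1 and ATF6 arm, Xbp1 was the gene whose groups stood clear of each other. Xbp1 (chr11:5520659-5525893, mm10), the transcription factor that drives ER expansion in secretory cells, had scaled counts of 21157 and 22910.0 in cHet against 14454 and 14129.7 in cKO, or 22033 ± 1239.8 against 14292 ± 229 (mean ± SD, n = 2 each). Replicates differed by little and the 2 groups were separate. The log2 fold change was -0.62 ± 0.23, a level 1.54-fold higher in cHet, with a limma p of 0.0281 before adjustment and 0.913 after Benjamini-Hochberg adjustment. It ranged from -0.68 to -0.57 when each library was left out. Ern1, which encodes IRE1, the kinase and ribonuclease that splices Xbp1 mRNA, had 1035 and 684 in cHet against 377 and 1129 in cKO, with cKO 0 lowest and cKO 1 highest. Atf6, the sensor that is cut in the Golgi to release a transcription factor, was at 3368 and 7299 in cHet against 3593 and 3622 in cKO. Its difference (-0.46 ± 0.45) rested on cHet 1 and was 0.10 without that library.

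The CREB3L factors are relatives of ATF6 that are cut in the same way, and Creb3l1 (OASIS) is known for driving secretion of collagen in bone-forming cells. Creb3l1 (chr2:91982328-92024502) was more abundant in both cHet libraries, with 33810.3 and 27864 in cHet against 22927 and 18981 in cKO, a difference of -0.56 ± 0.24 (limma p before adjustment 0.0505). Creb3l2, which serves a like role in cartilage, was at 4115 and 4793 in cHet against 3777 and 4023 in cKO. Its groups did not overlap either, but the gap between the nearest libraries was small beside the spread (-0.19 ± 0.36). In FPKM, Creb3l1 was 212 and 164 in cHet against 147 and 118 in cKO, again with cHet above cKO in every pair of libraries.

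The 13 chaperones and folding enzymes shared a direction. All 13 were lower in cKO, 10 of them without overlap, with a median log2 fold change of -0.34, or -0.21 without cKO 1, and none passed the adjusted test in limma. They took 0.615% and 0.639% of the scaled total in cHet and 0.552% and 0.502% in cKO. Hspa5 (chr2:34771970-34777547), which encodes the main ER chaperone BiP and is the standard marker of ER stress, had 77189.9 and 84878 in cHet against 72691 and 65829 in cKO. Both cKO libraries lay below both cHet libraries, by a log2 fold change of -0.23 ± 0.23 with a 95% interval from -0.76 to 0.30. Hsp90b1, the GRP94 chaperone, was at 63344 and 63663 in cHet against 57214 and 46311 in cKO (-0.30 ± 0.23). Replicates in cHet agreed closely, while cKO 1 lay well below cKO 0.

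The lectin chaperones that hold glycoproteins, and the isomerases that work beside them, differed by small amounts. Calr, calreticulin, had 77132 and 83346 in cHet against 69406 and 75141 in cKO, a difference of -0.15 ± 0.23. Canx, its membrane-bound partner calnexin, was at 28599.6 and 33765 in cHet against 27922 and 26236 in cKO. In both genes the groups nearly met without overlapping. The disulphide isomerase Pdia3, which pairs with these lectins, had 67743 and 67133 in cHet against 59653 and 51033 in cKO, Pdia4 had 26523 and 25164 in cHet against 23708 and 17474 in cKO, and Pdia6 had 53793 and 53194 in cHet against 49704 and 45342 in cKO. For all 3 isomerases the lowest value was cKO 1, and log2 fold changes of -0.29, -0.34 and -0.17 became -0.18, -0.12 and -0.11 without it.

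Co-chaperones and smaller folding factors gave the larger differences of this group. Dnajc3, the BiP co-chaperone p58IPK, was at 9447 and 16041 in cHet against 8257 and 7541 in cKO. Its high value was cHet 1, and the log2 fold change of -0.64 ± 0.32 became -0.26 without that library. Dnajb11, another BiP co-chaperone, had 8882 and 10779 in cHet against 7326 and 6968 in cKO (-0.45 ± 0.28), and Manf, a secreted stress-response factor that binds BiP, had 7880.3 and 8081 in cHet against 5280.2 and 6264 in cKO (-0.47 ± 0.30). Both were separate between groups, with cKO lower. The other 3 overlapped: Dnajb9 (ERdj4), a BiP co-chaperone, had 1930.4 and 1310.2 in cHet against 1362 and 1012 in cKO, Sdf2l1, a partner of BiP complexes, had 1235 and 3090.3 in cHet against 941 and 1725 in cKO, and Hyou1, the nucleotide exchange factor GRP170, had 2571 and 4701 in cHet against 1099 and 4249.6 in cKO. For Sdf2l1 the high library was cHet 1, without which its log2 fold change of -0.62 was 0.045. The value for Hyou1 was set by cKO 0, since its log2 fold change of -0.68 was 0.29 without that library. Among the 8 genes with the printed ER stress element, the median was -0.20, and 7 were lower, against -0.29 for the 27 with a window but no such match.

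**Figure D2:**
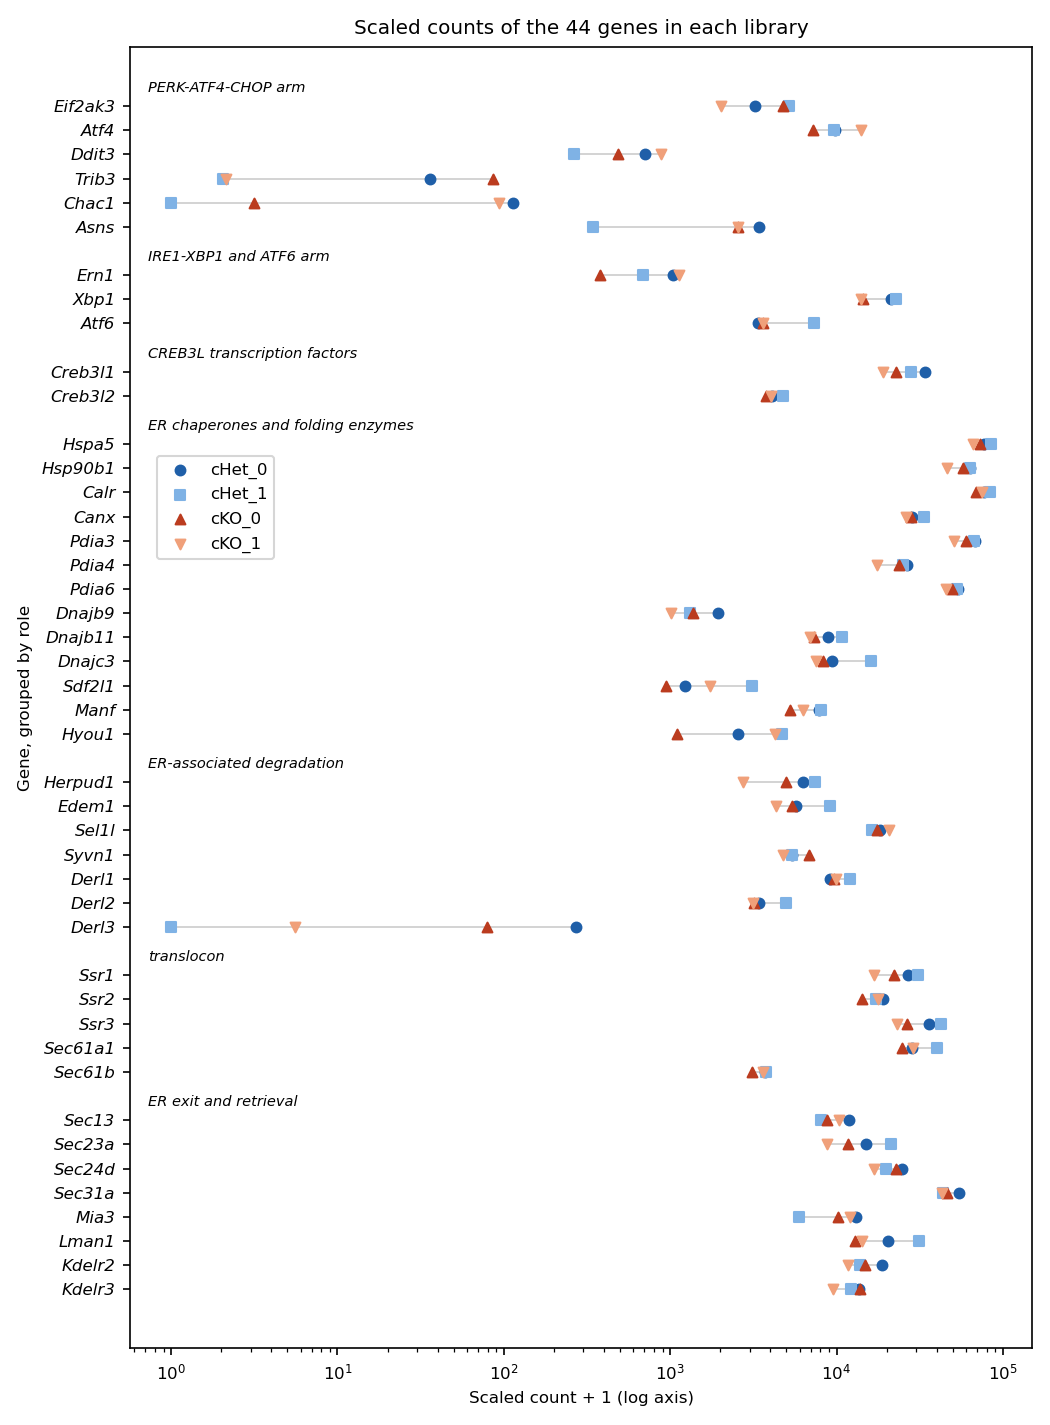
Each row is 1 of the 44 genes, grouped by role, and each symbol is the scaled count plus 1 of a library on a log axis. Abundant chaperones such as Hspa5 form tight clusters of 4 symbols between 65829 and 84878, whereas Trib3, Chac1 and Derl3 scatter, with 0 in cHet 1 for Chac1 and Derl3.

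ER-associated degradation split by gene. Of the 7 genes, 5 were lower and 2 higher, with 3 of the lower without overlap. The median of -0.20 was the value of Derl3, a sparsely counted gene, and became -0.47 without cHet 0, -0.11 without cHet 1, -0.12 without cKO 1, -0.096 and -0.38 with pseudocounts of 1 and 10, and -0.081 with limma-voom on the recovered counts. Herpud1 (chr8:94386438-94395377), whose promoter is printed above, had 6245 and 7439 in cHet against 4954 and 2737 in cKO. Both cKO libraries were lower and cKO 1 lowest, and the log2 fold change was -0.89 ± 0.40 (limma p before adjustment 0.056), or -0.46 without cKO 1. Edem1, a lectin that hands misfolded glycoproteins to degradation, was at 5688 and 9107 in cHet against 5401 and 4302 in cKO. Its groups did not overlap, but the difference of -0.58 ± 0.36 was -0.24 without cHet 1. Derl2, a membrane protein of the export channel, had 3420.3 and 4960.4 in cHet against 3195 and 3129.6 in cKO and also lay lower in cKO.

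The ubiquitin ligase core had overlapping groups, with positive fold changes for Sel1l and Syvn1 that became -0.032 for Syvn1 with median-of-ratios rescaling. Sel1l, the scaffold of the ligase, had 18181 and 16455 in cHet against 17538 and 20631 in cKO (0.14 ± 0.24), and Syvn1, the ligase HRD1 that it holds, had 5427 and 5386 in cHet against 6809 and 4751 in cKO (0.073 ± 0.34). For Syvn1 the cKO libraries lay on either side of the controls. Derl1, a further export protein, was at 9198 and 11972 in cHet against 9687 and 9953 in cKO, with cHet 0 the lowest and cHet 1 the highest. Derl3 was at 269 and 0 in cHet against 78.6 and 4.54 in cKO, with a log2 fold change of -0.20 ± 3.01 that was 0.60 with limma-voom.

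The translocon and its accessory subunits lay lower throughout. All 5 were lower in cKO, 3 without overlap, with a median of -0.34, or -0.59 without cHet 0, and their share of the scaled total was 0.165% and 0.189% in cHet and 0.13% and 0.127% in cKO. Ssr3 (chr3:65379655-65392623), the gamma subunit of the translocon-associated protein complex, had 36189 and 42214 in cHet against 26576 and 23103 in cKO, or 39202 ± 4260.0 against 24839.8 ± 2456 (mean ± SD, n = 2 each). The groups were far apart relative to their spread, with a log2 fold change of -0.66 ± 0.23, 1.58-fold higher in cHet, and a limma p of 0.0218 before adjustment (0.913 after). It stayed between -0.77 and -0.55 when each library was left out. The alpha subunit Ssr1 was at 26828 and 30855 in cHet against 22194 and 16897 in cKO (-0.57 ± 0.25), again without overlap. The beta subunit Ssr2 had 19149 and 17318 in cHet against 14174 and 17696 in cKO, and here cKO 1 lay within the cHet range. Subunits of 1 complex thus differed in size of change from -0.20 for Ssr2 to -0.66 for Ssr3, a difference that was not tested. Sec61a1, the channel itself, had 28537 and 40261 in cHet against 24806 and 28781 in cKO, and cKO 1 overlapped cHet. Its small partner Sec61b had 3735 and 3783 in cHet against 3092 and 3636 in cKO, a difference of -0.16 ± 0.39.

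At ER exit, the large differences were in 2 of 8 genes. Lman1, the cargo receptor ERGIC-53 (chr18:65980738-66022580), had 20412 and 31185 in cHet against 12949.9 and 14283 in cKO, or 25798 ± 7618 against 13616 ± 943 (mean ± SD, n = 2 each). Although cHet 1 was the highest, cHet 0 also stood well above both cKO libraries. The log2 fold change was -0.89 ± 0.28, 1.85-fold higher in cHet, with a limma p of 0.0124 before adjustment and 0.913 after. Leaving out each library gave -1.20 to -0.59. Sec23a (chr12:58958383-59012017), the inner coat subunit of COPII known for its need in collagen export, had 15041 and 21395 in cHet against 11737 and 8711 in cKO, or 18218 ± 4493 against 10224 ± 2139 (mean ± SD, n = 2 each). Both cKO libraries were lower, by -0.83 on the log2 scale with a standard error of 0.29 and a limma p of 0.0226 before adjustment (0.913 after).

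The rest of the coat and the retrieval receptors overlapped between groups. The cargo-selecting coat subunit Sec24d had 24631 and 19953 in cHet against 22932 and 16820.1 in cKO, the outer coat subunit Sec31a had 54369 and 43964 in cHet against 46122 and 43118 in cKO, and Sec13, its partner, had 11867 and 8114 in cHet against 8729.9 and 10392 in cKO. Each group held both high and low values for these genes. Mia3 (TANGO1), which loads procollagen into large vesicles, was at 13121 and 5958 in cHet against 10259.7 and 12028 in cKO. Its low value was cHet 1, and its log2 fold change of 0.33 ± 0.39 was -0.24 without that library. The receptors that return chaperones to the ER, Kdelr2 and Kdelr3, had 18884 and 13784 in cHet against 14894 and 11688 in cKO and 13692 and 12140.5 in cHet against 13836 and 9465 in cKO, with log2 fold changes of -0.29 and -0.17. Kdelr2 was at -0.063 without cHet 0, and Kdelr3 at 0.10 without cKO 1.

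**Figure D3:**
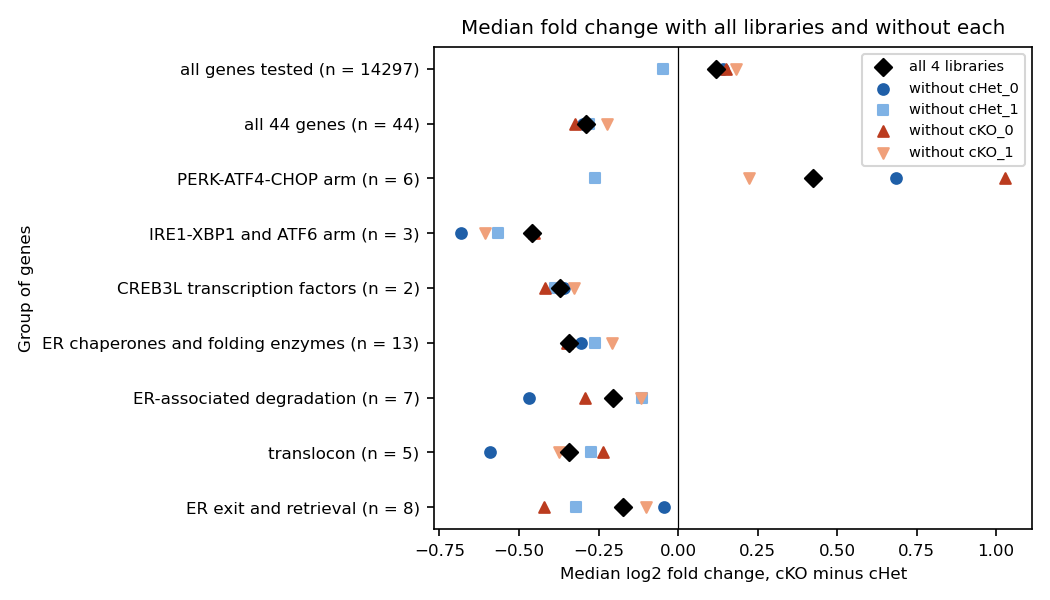
Diamonds give the median log2 fold change (cKO minus cHet) of each group of genes with all 4 libraries, and coloured symbols the same with 1 library left out. Without cHet 1 the median of the PERK arm crosses 0, from 0.43 to -0.26, as does that of all genes tested, from 0.12 to -0.048. The other groups stay below 0. The n beside each group counts all 4 libraries; the sparse genes Trib3, Chac1 and Derl3 drop out of some fits.

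Of the 145 related genes outside the 44, 144 were tested. Against 43.7% lower over all genes, 84 (58.3%) of the 144 were lower and 60 higher, with a median of -0.073. Of these, 44 (30.6%) did not overlap with cKO lower and 16 (11.1%) with cKO higher, against 14.2% and 18.0% over all genes. None of the 144 passed the adjusted test in limma. An unadjusted limma p under 0.05 was found for 6 lower (4.17%) and 2 higher (1.39%), against 1.49% and 1.54% over all genes. The list of other ER exit, retrieval and COPI genes gave 22 lower and 11 higher of 33, led by Copb2, a COPI coat subunit, at 24623 and 23944 in cHet against 14656 and 14497 in cKO (-0.74 ± 0.23), with nearly the same value within each group. Tmed2, a cargo receptor of that coat, had 43846 and 55666 in cHet against 31857 and 33802 in cKO. Both stood apart between groups, like Spcs2, a signal peptidase subunit, at 13293 and 18046 in cHet against 9737 and 8369 in cKO (-0.78 ± 0.28), and Ostc, an oligosaccharyltransferase subunit, at 9850.4 and 11797 in cHet against 7301 and 5261 in cKO (-0.80 ± 0.31). The list of other translocation, signal peptidase and glycosylation genes gave 16 lower and 10 higher of 26.

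The other lists held genes of both directions. Other ATF4 targets had 10 lower and 12 higher of 22, with a median of 0.17. Its 2 lowest p-values were those of Vldlr, a lipoprotein receptor, at 11118 and 18805 in cHet against 9460.3 and 7623 in cKO, and Slc7a5, an amino acid transporter, at 5271 and 8329 in cHet against 3599 and 4020.3 in cKO. Both were lower in cKO. Other stress regulators were 13 lower and 8 higher of 21, with Nupr1, a stress-induced nuclear protein, at 2237 and 3619 in cHet against 1456 and 994 in cKO. Wfs1, an ER membrane protein, was in contrast set by 1 low library, at 2987 and 36.6 in cHet against 2618 and 4223 in cKO. Other chaperones were 13 lower and 9 higher of 22, with Dnajc18, a DNAJ-type co-chaperone, higher in cKO (2270.5 and 915 in cHet against 4766 and 3088 in cKO) and Fkbp14, an ER prolyl isomerase, lower (9175 and 9347 in cHet against 6395 and 6478 in cKO). Other degradation genes were 10 lower and 10 higher of 20, with Nploc4, a cofactor of the ATPase that extracts proteins from the ER, at 6839 and 2625 in cHet against 7634 and 11547 in cKO, and Ube2g2, a ubiquitin-conjugating enzyme, at 3786 and 4126 in cHet against 2155 and 2512 in cKO.

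Cytosolic heat shock chaperones, which serve folding outside the ER, had a median of -0.066, with 12 lower and 10 higher of 22. Dnajb1, an HSP40 co-chaperone, was higher in cKO at 10269.8 and 11140.0 in cHet against 14493 and 19753 in cKO (0.66 ± 0.27), and Cct3, a subunit of the cytosolic chaperonin, was lower at 12948 and 13887 in cHet against 8979 and 10029.9 in cKO. Between the 13 ER chaperones and these 22 genes the medians were -0.34 and -0.066, and that difference was not tested.

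Levels per gene length place the chaperones at the top. In mean FPKM over the 4 libraries the order began with Calr (440), Hspa5 (313) and Pdia6 (276), and ended with Derl3 (1.06), Chac1 (0.51) and Trib3 (0.23). In each library Calr was first, at 576 and 344 in cHet against 513 and 325 in cKO. The order below it was not stable, since Hspa5 came next in cHet 0, cHet 1 and cKO 0 but stood behind Ssr2 in cKO 1, at 441 and 220.1 in cHet against 405 and 188 in cKO.

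The FPKM values carried a difference between library pairs that was not seen in the scaled counts. The FPKM per scaled count of a gene, over the 6895 genes with at least 1000 scaled counts in every library, was close between cHet 0 and cKO 0, with a median log2 difference of -0.0056 (SD 0.043 across genes). It was lower in cHet 1 than in cHet 0 by a median of -0.82 (SD 0.74) and in cKO 1 by -0.72 (SD 0.64). Across the 37 of the 44 genes at this level, the log2 shift from cHet 0 to cHet 1 ran from -2.29 for Dnajb9 to 0.29 for Sec61b. Dnajb9 had FPKM of 17.5 and 2.43 in cHet against 11.8 and 2.23 in cKO while its scaled counts ran from 1012 to 1930.4. The same-numbered libraries shared this shift, and the median log2 difference in FPKM per scaled count between cKO 1 and cHet 1 was 0.11.

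Within same-numbered columns, where the shift was shared, FPKM and scaled counts gave like results. Of the 41 genes, 36 were lower in cKO 0 than in cHet 0, 32 in cKO 1 than in cHet 1, and 27 (65.9%) in both, with 0 higher in both, against 21.9% lower in both among 12278 genes. The median log2 FPKM ratios were -0.24 and -0.21, against 0.015 and 0.17 over all genes. In scaled counts 28 of the 44 (63.6%) were lower in both, against 22.1% of all genes. Lman1 had FPKM of 105 and 70.3 in cHet against 62.0 and 40.4 in cKO, and the cHet libraries were higher throughout. For Xbp1, at 184 and 111 in cHet against 125 and 73.6 in cKO, cHet 1 lay below cKO 0, so that the groups overlapped in this unit although each cKO value was below its same-numbered cHet value.

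**Figure D4:**
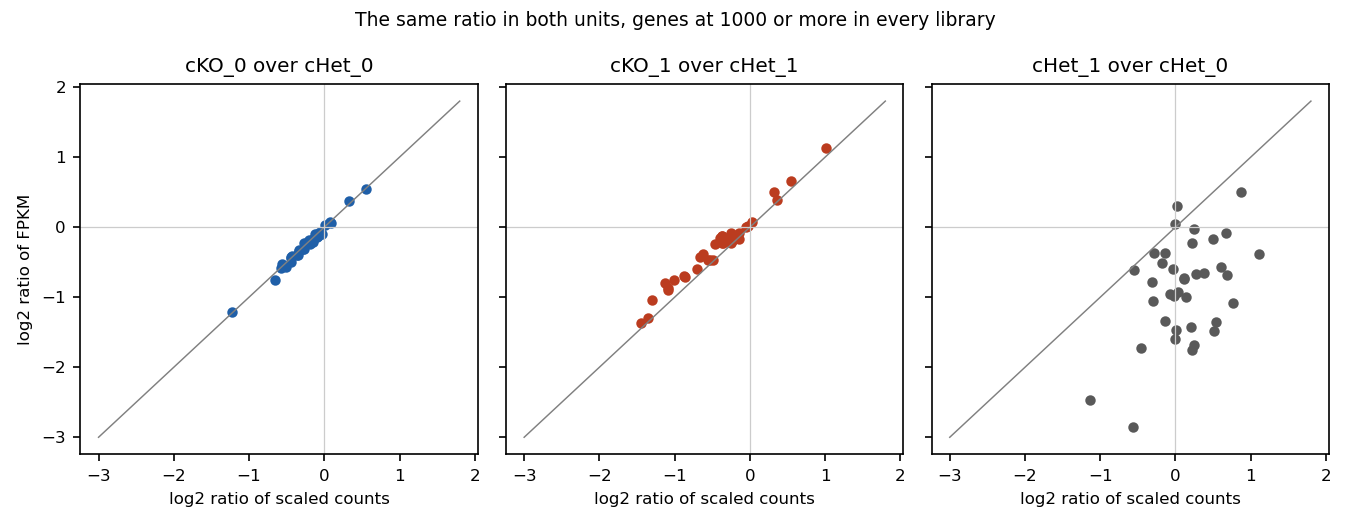
Each panel plots the log2 ratio of FPKM between a pair of libraries against the log2 ratio of scaled counts for the 37 genes, 1 point each, with at least 1000 scaled counts in every library, with the line of equality in grey. Points lie near the line for cKO 0 over cHet 0 and for cKO 1 over cHet 1, and mostly below it for cHet 1 over cHet 0, where the median shift of these genes is -0.96.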

How the data were processed

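RNA from FACS-sorted tdTomato+ cells was isolated with PicoPure, amplified with SMART-Seq v4 and made into libraries with Nextera XT, per the labels' protocols. The submitters' processing notes list, with no role or order, DESeq2, HTSeq, Cuffdiff, Cufflinks, Bowtie2 2.2.1, TopHat2 2.0.13 and FastQC, and the build mm10. The use of strand in counting is not given in the sources used. The deposited scaled counts (a signal: gene counts divided by a factor per library, which the authors do not state) and the authors' deposited FPKM values were used. No raw counts could be tied to the labels, so the count test planned for that case was not run, and limma's trended test (limma 3.58.1 under R 4.3.3) was used. Each library's step was read from the commonest scaled count under 1.5. The remaining values, including 2 to 8 per library under 0.5 of a step, were not whole, so recovered counts were rounded. Another 16 columns, in 4 tables, carried sample names that matched no label and were not used.

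limma was fitted by group alone on log2(scaled count + 3) for genes with at least 10 in at least 2 libraries. A call needed a Benjamini-Hochberg adjusted p under 0.05 over all genes. Recovered counts are reads, not independent molecules. Alternatives were pseudocounts of 1 and 10, other filters, median-of-ratios rescaling, log2(FPKM + 1), and limma-voom on the recovered counts with the authors' scaling (added after seeing the data). Others were a block on column number, weights per library, a fit without a variance trend and leaving out each library.

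Values per library are given for the sensors and transcription factors, Hspa5, genes whose groups did not overlap and the 3 highest and 3 lowest by FPKM, with others added after their values were seen. Of each related list, the 2 genes with the lowest p were named. The 44 genes and all lists were chosen with earlier results of these data known. Marker lists covered dental follicle, epithelium, odontoblasts, osteoblasts, endothelium, Schwann cells, leukocytes and plasma cells. Gene coordinates are from GENCODE vM21 (GRCm38, the build mm10), and promoter sequences from RefSeq (GRCm38.p6).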

Additional observations from a re-analysis of the deposited data

How the results depend on the processing

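With 2 libraries a group, single libraries set many values. The number of genes called, 0 in the reported fit, was 7 with log2(FPKM + 1), 8 with limma-voom on the recovered counts, 1 with log2(FPKM + 1) and a replicate block (the last 2 chosen after seeing the data), and from 12 to 1718 when each library was left out, the highest without cHet 0; a lone library is then assumed to vary like the other group. Of the 44 genes, 0 were called in each fit that used all 4 libraries. A fit without 1 library rests on a lone library in 1 group, so calls among the 44 from such fits are not given. Their median log2 fold change of -0.29 was -0.22 in both FPKM fits and -0.39 with median-of-ratios rescaling, which moved the all-gene median from 0.12 to 0.02, and ran from -0.32 to -0.22 without each library. Genes lower without overlap, 21 in the reported fit, were 4 in both FPKM fits, 27 with rescaling (background 16.3%) and 27 to 31 without each library (background 26.7% to 34.6%), and those higher, 0 in the reported fit, were 2 to 5 (background 27.8% to 46.3%). The related genes' median of -0.073 was -0.011 in both FPKM fits, -0.12 among genes with a mean of at least 1000, -0.18 with rescaling, and -0.15 to -0.073 without each library.

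The scaled counts with a replicate block on column number called 0 genes. In this balanced design a block cannot change a fold change. Its median of -0.29, and the equal values of both FPKM fits, were therefore fixed in advance. The median with limma-voom was also -0.29. Same-numbered libraries deviated together with a correlation of 0.0486 in log2 scaled counts. In log2(FPKM + 1) the correlation was 0.28 over 12278 genes and 0.54 over 41 of the 44. The labels do not say that the numbers mark pairs. Of the 36 genes lower in cKO, 25 were lower in each of the 15 alternatives that gave a value. Of the 44, 18 changed sign in at least 1, with 8 of them doing so without cHet 1. Several alternatives keep each reported fold change, so they could not change a sign. These are the filters, the weights per library, the fit without a variance trend and the block on scaled counts. Atf4 and Syvn1 changed sign with rescaling, at -0.052 and -0.032. The causes of these shifts were not tested.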

Other observations

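Summed leukocyte markers (7 genes) were at 1134 in cHet 0, 17979 in cHet 1, 1532 in cKO 0 and 13378 in cKO 1, most of it from Cd74 and Lyz2. Single markers differed from the sum: Csf1r had 228 and 8.37 in cHet and 52.8 and 2151 in cKO, and Ptprc had 0.81 and 0 in cHet and 62.5 and 76.0 in cKO. The epithelial sum was higher in the library numbered 1 of each group. Schwann cell markers, 0 of 7 lower in cKO, summed to 3439 and 689.6 in cHet and to 7230 and 23053 in cKO. Endothelial markers, 1 of 6 tested lower, summed to 2356 and 4763 in cHet and to 3701 and 7371 in cKO, mostly from Kdr. The more specific Pecam1 had 0 and 5.23 in cHet and 299.5 and 1278 in cKO, Cdh5 40.5 and 69.1 against 471 and 874, and Cldn5 0.81 and 3.14 against 121 and 496, all higher in both cKO libraries. The part of these cells in the values of the ER genes was not tested.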
